A study of Mus musculus with 6 samples.

Results

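The genes described here encode the AP-1 transcription factor subunits, the Egr zinc finger factors and the Ier proteins. The 10 genes were Fos, Fosb and Fosl2 of the Fos family, Jun, Junb and Jund of the Jun family, Egr1, Egr2, Ier2 and Ier3. They were taken by name, as all probe sets whose symbol in the array's annotation was one of these names. This gave 14 of the 45037 probe sets that are not controls, and 10 of the 18193 genes tested with 1 probe set each. Fosl2, Jun, Jund and Egr2 had 2 probe sets and the other 6 genes had 1.

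RNA came from Ba/F3, an established mouse line of pro-B cells whose survival needs interleukin-3. All cells had been transduced with the SPAG9-JAK2 fusion, a JAK2 tyrosine kinase joined to the scaffold protein SPAG9, in a Tet-On vector that switches it on with doxycycline. Of 6 cultures, 3 received doxycycline at 500 ng/ml (induced) and 3 received none (uninduced), and RNA was taken after 48 hours and hybridised to 1 Affymetrix 3′ array per culture. Uninduced cells thus carried the same vector without the drug, and no culture had doxycycline without the fusion, so the drug and the fusion cannot be told apart. Whether interleukin-3 was in the medium, and whether the cells were 1 clone, is not stated in the labels. The comparison asks which genes differ once the fusion is made.

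Immediate early genes are genes that a stimulated cell transcribes within minutes, before any new protein is needed. Growth factor and cytokine receptors reach them through the MEK and ERK kinase cascade, which acts on the ternary complex factors and serum response factor at the promoters, and cAMP and stress signals reach them through CREB and JNK. The messages are short-lived, so their level follows recent signalling. Fos and Jun proteins pair through leucine zippers to form AP-1, which binds the sequence TGANTCA, where N is C or G. Egr proteins bind GC-rich sites with 3 zinc fingers.

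Signals below are the deposited intensities on a linear scale. Differences are induced minus uninduced means of log2(signal + 16) with their standard error and 95% confidence interval from limma, and they understate the change of dim genes. Each array had a mean signal of 500 after leaving out the extremes, and median signals ran from 46.3 to 63.8. The arrays numbered 1 stood apart from the others: between arrays of one group the SD of the log2 difference over all genes was 0.62 to 0.75 where array 1 was one of the pair and 0.51 to 0.52 between arrays 2 and 3. Results are therefore given with and without them. None of the 5 probe sets of mouse Jak2 and Spag9 passed the threshold in limma, with differences from -0.92 to 0.67. Which species and which part of the transcripts the fusion holds is not given, so these probe sets do not check the labels. Of 15 measured pro-B and cytokine receptor markers, 7 were at or above background, among them Csf2rb, Il3ra, Ptprc and Cd79b, and 8 were below it by their mean over all 6 arrays, among them Cd79a, Ebf1, Vpreb1, Rag1 and Rag2. Background here is 6.02 on the log2 scale, the 90th percentile of 20 genes of liver and brain.

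All 10 genes had a lower mean in induced than in uninduced cells, where 10174 of the 18193 genes tested did so. None of the 10 passed the threshold. The median difference was -0.78 on the log2 scale, against -0.06 over all genes tested. This contrast is descriptive, because the 10 genes were chosen with earlier results of these data known. At an adjusted p of 0.05 in limma, 0 of the 10 were called, where 0.187% of all genes were (0.0715% lower and 0.115% higher), and at an unadjusted p under 0.05 there were 4 (Fosl2, Ier3, Jun and Jund), all lower, where 10.3% of all genes were lower and 7.14% higher. Of the 14 probe sets 0 were called, where 0.0377% of all probe sets were, and in 5 every induced array lay below every uninduced one, where 11.2% did so. In 5 of the 10 (these 4 and Fosb) every induced array lay below every uninduced one, which held for 13.4% of all genes. The count of 5 became 3 (Fosl2, Jun and Ier3) with each array centred on its median. It was 4 with quantile normalization, and 4 with the mean or the most variable probe set of a gene. The share of all genes in these settings was not computed, and 13.4% does not apply to them. Without uninduced replicate 1, 2 genes were called lower, Fosl2 and Jund, where 4.77% of all genes were. Without both arrays numbered 1, it was 3 genes, Fos, Fosl2 and Ier3, where 5.24% of all genes were. Since the call depends on which arrays enter, the per-array signals are given for each gene.

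**Figure D1:**
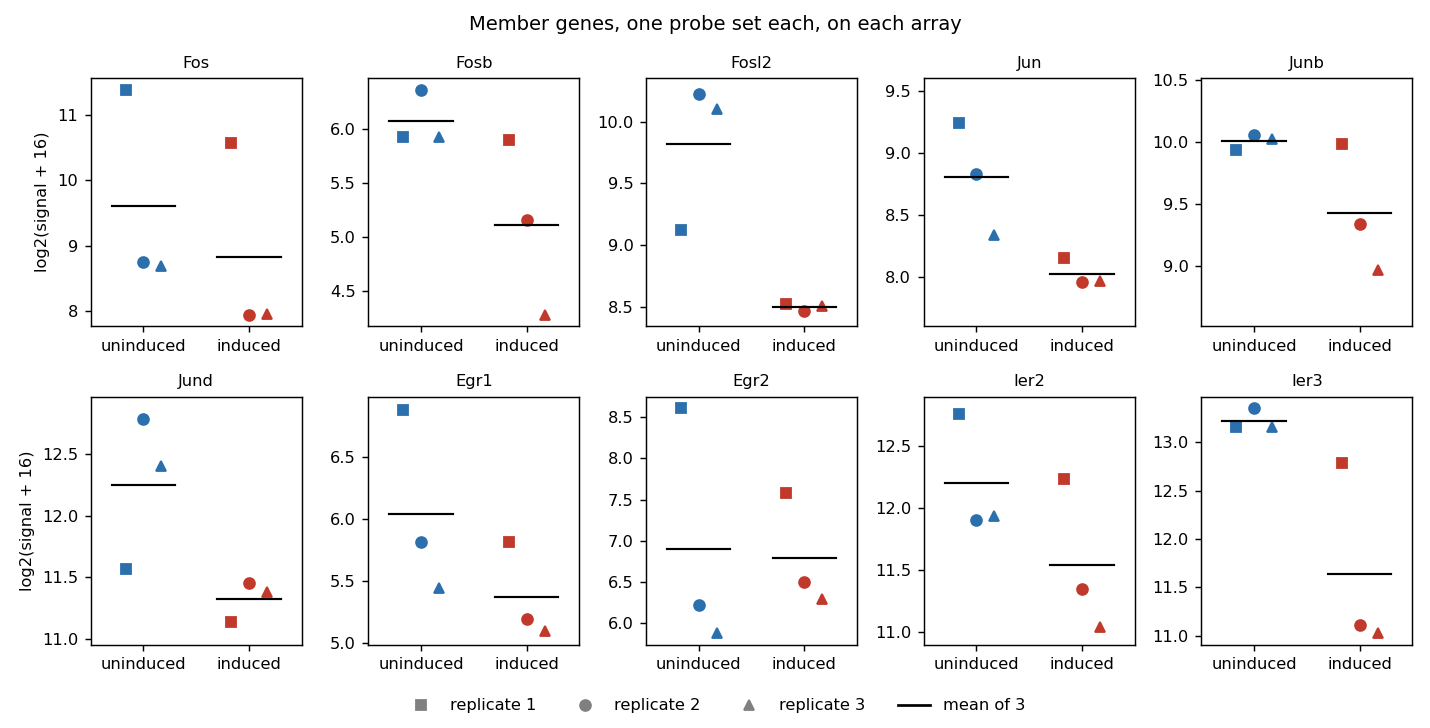
log2(signal + 16) of the 10 genes on each of the 3 uninduced (blue) and 3 induced (red) arrays, with the brightest probe set of each gene, replicate numbers as marker shapes and the group mean as a line. The squares of replicate 1 lie above both other arrays of the group in both groups for Fos, Jun, Egr1, Egr2 and Ier2, whereas Fosl2 and Jund are highest on uninduced arrays 2 and 3.

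Fos, Fosb and Fosl2 all had a lower induced mean with their brightest probe set, and none of the 3 passed the threshold. Fos, a partner of Jun in AP-1 and a standard readout of ERK activity, had signals of 2651, 416 and 396 on uninduced arrays 1, 2 and 3, and of 1509, 231 and 233 on the induced ones. Both arrays numbered 1 were far above the other 4, so the groups overlapped, while each induced array was lower than the uninduced array of its own number. The difference was -0.78 ± 0.99 (SE, 3 against 3 arrays), with an interval from -3.17 to 1.61 and an adjusted p of 0.726 in limma. Array 1 exceeded the mean of arrays 2 and 3 by 2.62 in induced and by 2.66 in uninduced cells on the log2 scale, well above the difference between the groups. Without both arrays numbered 1 the difference was nearly the same, -0.77 ± 0.11, but its adjusted p in limma was 0.0476. Without uninduced replicate 1 alone it turned to 0.11 ± 0.89, and without induced replicate 1 alone it was -1.65 ± 0.89. Leaving out induced replicate 2 or 3 gave -0.34 and -0.35, and leaving out uninduced replicate 2 or 3 gave -1.21 and -1.24.

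The RefSeq table of promoters (build GRCm38.p6) had entries for 8 of the 10 genes, all but Egr1 and Ier2. Of each entry the 250 bases before the transcription start were searched on both strands. In the search N stood for any base, so TGANTCA was taken more widely than with C or G alone. The letters were TGACG, the core of the cAMP response element (CRE), TGACNTCA, the element or a variant, TGANTCA, the AP-1 site, GCGNGGGCG, an Egr site, TTCNNNGAA, the palindrome that STAT factors downstream of JAK2 bind, CCGGAA, an Ets site, TATAAA, the TATA box, and the CArG box of serum response factor. Matches are in capitals in the printed windows, and overlapping matches run together. The Fos window, chr12:85473640-85473889 on the plus strand, is shown because Fos was among the genes with the widest spread between arrays of a group. It held TGACG at 129 to 125 and at 66 to 62 bases before the start and TATAAA at 33 to 28. TGACG occurred in 17.9% and TATAAA in 12.3% of all 32526 different windows of this length.
Fos: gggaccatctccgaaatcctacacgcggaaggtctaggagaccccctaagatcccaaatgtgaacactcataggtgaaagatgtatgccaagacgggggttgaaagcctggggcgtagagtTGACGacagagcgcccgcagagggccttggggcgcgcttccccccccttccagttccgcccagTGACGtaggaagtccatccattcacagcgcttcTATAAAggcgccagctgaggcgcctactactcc

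Fosb, a Fos relative that also yields a shortened protein lacking part of its activating end, had low signals of 45.1, 66.5 and 44.9 in uninduced and 43.8, 19.7 and 3.42 in induced cells. No induced array reached an uninduced one, although the arrays numbered 1 were almost level. The difference was -0.96 ± 0.41 (interval -1.95 to 0.03, adjusted p of 0.297 in limma). The induced mean of 5.11 on the log2 scale was below background and the uninduced mean of 6.08 just above it, so the size is uncertain. With pseudocounts of 64 and 1 in place of 16 it was -0.45 and -1.71, and without induced replicate 3 it was -0.55 ± 0.31.

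Fosl2 encodes FRA-2, a Fos relative without the strong activation domain of Fos, and it had the smallest p of the 10 genes. Its brighter probe set, 1437247_at, gave 541, 1181 and 1083 in uninduced and 352, 339 and 348 in induced cells. Induced arrays were within a narrow band, and uninduced array 1 lay between them and uninduced arrays 2 and 3. The difference was -1.31 ± 0.31 (interval -2.06 to -0.57), a 2.49-fold lower level on the log2(signal + 16) scale, with an adjusted p of 0.138 in limma. Without uninduced replicate 1 it was -1.66 ± 0.13 with an adjusted p of 0.0133 in limma, and without both arrays numbered 1 it was -1.67 ± 0.12 (adjusted p of 0.0329 in limma). The dimmer probe set, 1422931_at, did not show this: its signals were 88.3, 165 and 122 in uninduced and 106, 95.6 and 124 in induced cells. These groups overlapped, and the difference was -0.15 ± 0.25 (interval -0.75 to 0.44). The size for Fosl2 therefore rests on 1 of its 2 probe sets.

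The Fosl2 window, chr5:32136222-32136471 on the plus strand, is shown as that of the gene with the smallest p. Its only match was GCGGGGGCG, an Egr site at 79 to 71 bases before the start, a motif held by 4.74% of all windows. Fosb, the only other one of the 8 genes with this match, had it at 50 to 42.
Fosl2: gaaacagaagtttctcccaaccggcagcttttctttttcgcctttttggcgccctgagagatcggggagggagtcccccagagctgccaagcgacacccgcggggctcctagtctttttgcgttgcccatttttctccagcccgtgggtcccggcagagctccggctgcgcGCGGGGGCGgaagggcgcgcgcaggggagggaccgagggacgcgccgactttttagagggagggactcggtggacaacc

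The genes whose profile over the 6 arrays was most like that of Fosl2, by Pearson correlation among 10692 others at or above the median level, were Grhpr (0.999), Pnpla7 (0.999) and Ssh2 (0.998). Grhpr encodes a glyoxylate and hydroxypyruvate reductase, Pnpla7 a lysophospholipase and Ssh2 a phosphatase that activates the actin-severing protein cofilin. Their differences were -1.16 ± 0.27, -1.56 ± 0.33 and -0.91 ± 0.23, with adjusted p of 0.134, 0.123 and 0.144 in limma. The correlations are descriptive, since both the groups and uninduced array 1 shape them.

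Jun, Junb and Jund also had a lower induced mean with their brightest probe set, and none of the 3 passed the threshold. Jun, the partner that can pair with itself or with any Fos protein and whose own promoter AP-1 drives, had signals of 592, 440 and 308 in uninduced and 269, 233 and 234 in induced cells with probe set 1417409_at. All induced arrays lay below all uninduced ones, of which array 3 was nearest. The difference was -0.78 ± 0.25 (interval -1.39 to -0.17), a 1.72-fold lower level (adjusted p of 0.210 in limma). The dimmer probe set, 1448694_at, had 150, 81.5 and 122 in uninduced and 83.9, 67.9 and 41.4 in induced cells. It pointed the same way with a similar size, -0.74 ± 0.30, with induced array 1 just above uninduced array 2. Both Jun probe sets were above background in both groups.

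The Jun window, chr4:95052223-95052472 on the minus strand, is shown because both Jun probe sets gave the same direction. Its match was TGACATCA at 45 to 38 bases before the start, a form of TGACNTCA, which occurred in 7.43% of all windows and in none of the other 7 genes' windows.
Jun: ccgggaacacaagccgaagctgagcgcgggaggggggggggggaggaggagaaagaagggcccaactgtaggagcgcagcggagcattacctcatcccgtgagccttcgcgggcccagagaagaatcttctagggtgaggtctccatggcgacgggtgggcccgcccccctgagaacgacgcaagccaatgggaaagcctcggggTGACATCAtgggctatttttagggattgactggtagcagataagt

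Junb, a Jun relative of weaker activity that can oppose Jun, had signals of 963, 1051 and 1023 in uninduced cells, the tightest group of all 10 genes on the log2 scale among uninduced arrays. Induced cells gave 995, 631 and 485. Induced array 1 was as high as the uninduced arrays and induced arrays 2 and 3 were lower. The difference was -0.58 ± 0.27 (interval -1.23 to 0.08, adjusted p of 0.338 in limma), and -0.89 ± 0.18 with an adjusted p of 0.0685 in limma without both arrays numbered 1. Without induced replicate 3 it was -0.35 ± 0.26.

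Jund, the Jun relative that most cells express without stimulation, had signals of 3013, 7018 and 5386 in uninduced and 2235, 2789 and 2648 in induced cells with probe set 1449117_at. The groups did not overlap, but uninduced array 1 was close to the induced arrays, as for Fosl2. The difference was -0.92 ± 0.32 (interval -1.71 to -0.14, adjusted p of 0.230 in limma). Without uninduced replicate 1 it was -1.27 ± 0.19, with an adjusted p of 0.0317 in limma. Once the arrays were centred on their medians the groups overlapped. The other probe set, 1440265_at, had a mean below background in both groups (5.51 uninduced and 5.92 induced on the log2 scale), and its difference was 0.41 ± 0.38.

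**Figure D2:**
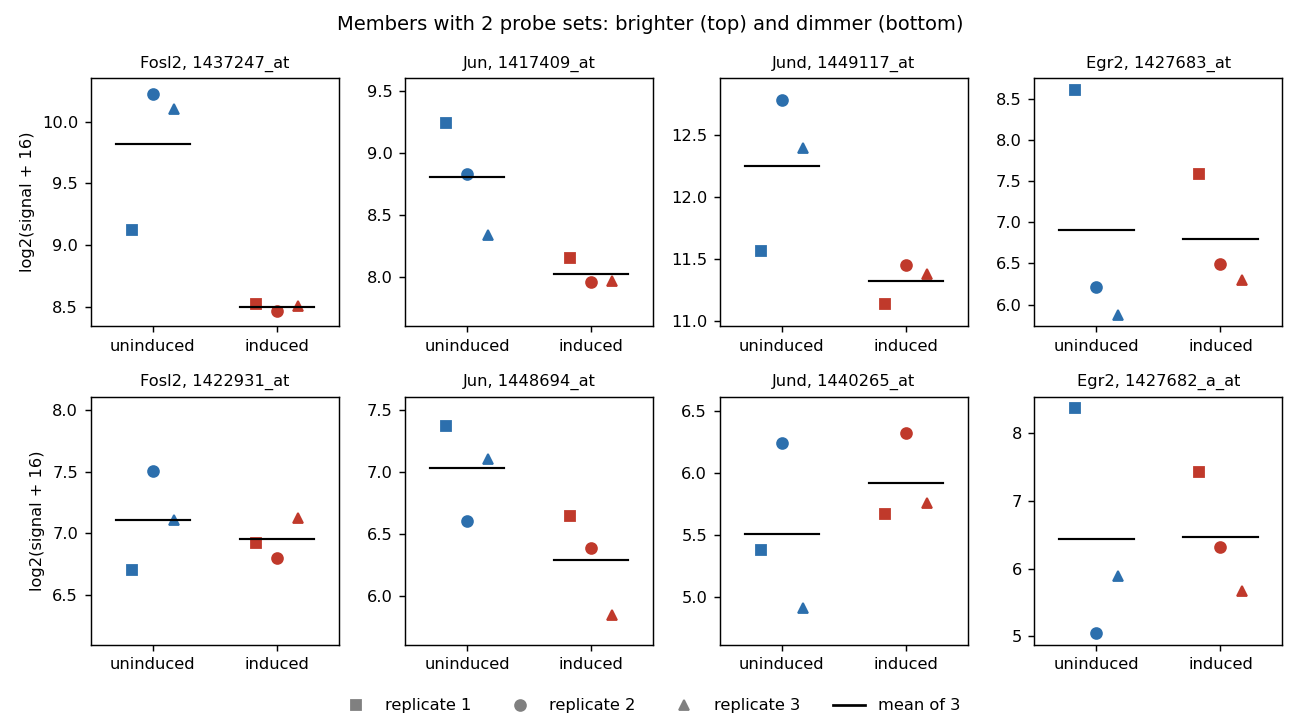
log2(signal + 16) on each array for the 4 genes with 2 probe sets, with the brighter probe set in the upper row and the dimmer one in the lower. Both Jun probe sets have a lower induced mean and both Egr2 probe sets have their highest signals on the arrays numbered 1, whereas the dimmer Fosl2 (-0.15) and Jund (0.41) probe sets do not show the lower induced mean of the brighter ones (-1.31 and -0.92).

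In both Egr genes the groups overlapped and array 1 was the highest of each group. Egr1, a factor that serum and many cytokines induce together with Fos, was dim, with signals of 102, 40.1 and 27.4 in uninduced and 40.3, 20.4 and 18.1 in induced cells. Only uninduced array 1 stood clear of the other 5. The difference was -0.68 ± 0.41 (interval -1.66 to 0.31, adjusted p of 0.444 in limma), and -0.26 ± 0.28 without uninduced replicate 1. The uninduced mean (6.04) was at background and the induced mean (5.36) below it on the log2 scale.

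Egr2, a related factor best known from myelinating cells and lymphocytes, showed the smallest difference between the groups. Probe set 1427683_at gave 374, 58.3 and 42.8 in uninduced and 175, 74.2 and 62.6 in induced cells. Between the arrays numbered 1 the induced one was lower, and among the others the induced ones were higher. The difference was -0.11 ± 0.76 (interval -1.94 to 1.72, adjusted p of 0.962 in limma), and 0.35 ± 0.18 without both arrays numbered 1. Probe set 1427682_a_at repeated the high arrays numbered 1, with 316, 17.0 and 43.5 in uninduced and 156, 63.7 and 34.7 in induced cells, and its difference was 0.03 ± 0.89. The direction for Egr2 is thus not settled.

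The promoter table lists 5 starts for Egr2. The window of the third of them, chr10:67537619-67537868 on the plus strand, is shown as an example with a CArG box, the site at which serum response factor acts on immediate early genes. The box CCATATATGG was at 72 to 63 bases before the start, with TGACG at 111 to 107 and its reverse complement CGTCA at 55 to 51. A CArG box occurred in 1.48% of all windows, and among the 8 genes only the Egr2 windows held one.
Egr2: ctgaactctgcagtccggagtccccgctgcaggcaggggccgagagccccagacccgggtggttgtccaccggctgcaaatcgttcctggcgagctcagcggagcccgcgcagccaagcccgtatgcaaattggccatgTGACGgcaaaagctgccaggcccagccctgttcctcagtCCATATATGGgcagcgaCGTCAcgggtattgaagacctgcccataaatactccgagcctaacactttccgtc

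Among the Ier genes, Ier2, a short-lived nuclear protein, had signals of 6909, 3822 and 3908 in uninduced and 4802, 2586 and 2090 in induced cells. Both arrays numbered 1 were the highest of their group, and each induced array was below the uninduced one of the same number. The difference was -0.66 ± 0.38 (interval -1.59 to 0.27, adjusted p of 0.426 in limma). It was -0.73 ± 0.16 with an adjusted p of 0.0773 in limma without both arrays numbered 1. Without uninduced replicate 1 alone it was -0.38 ± 0.38 (adjusted p of 0.596 in limma), without induced replicate 3 it was -0.41 ± 0.40, and without induced replicate 1 it was -1.01 ± 0.33.

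Ier3, also known as IEX-1, a regulator of cell survival that ERK and NF-kB induce, had the largest difference of the 10 genes. Its signals were 9093, 10444 and 9114 in uninduced and 7064, 2188 and 2069 in induced cells. The groups did not overlap, and induced array 1 lay near the uninduced arrays. The difference was -1.58 ± 0.48 (interval -2.73 to -0.43), a 2.99-fold lower level, with an adjusted p of 0.189 in limma. Without both arrays numbered 1 it was -2.19 ± 0.13 with an adjusted p of 0.0317 in limma. Its probe set carries the suffix _a_at, which marks probes shared by several transcripts of the gene.

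The Ier3 window, chr17:35821463-35821712 on the plus strand, is shown for the gene with the largest difference. None of the 8 motifs was found in it, and the same was true of the Jund window, so that no letter is in capitals. The STAT palindrome TTCNNNGAA, in 7.04% of all windows, was found in no window of the 8 genes. The letters TGANTCA, in 6.73%, were found in none either. TGACATCA in the Jun window is longer than TGANTCA and was counted under TGACNTCA only, so an AP-1 site of other letters is not excluded. A match describes letters only, and a missing match covers these letters and these 250 bases only.
Ier3: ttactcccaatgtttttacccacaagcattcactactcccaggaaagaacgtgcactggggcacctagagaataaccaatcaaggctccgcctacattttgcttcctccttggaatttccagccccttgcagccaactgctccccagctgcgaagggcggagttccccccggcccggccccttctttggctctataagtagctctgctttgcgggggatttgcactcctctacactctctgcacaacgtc

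**Figure D3:**
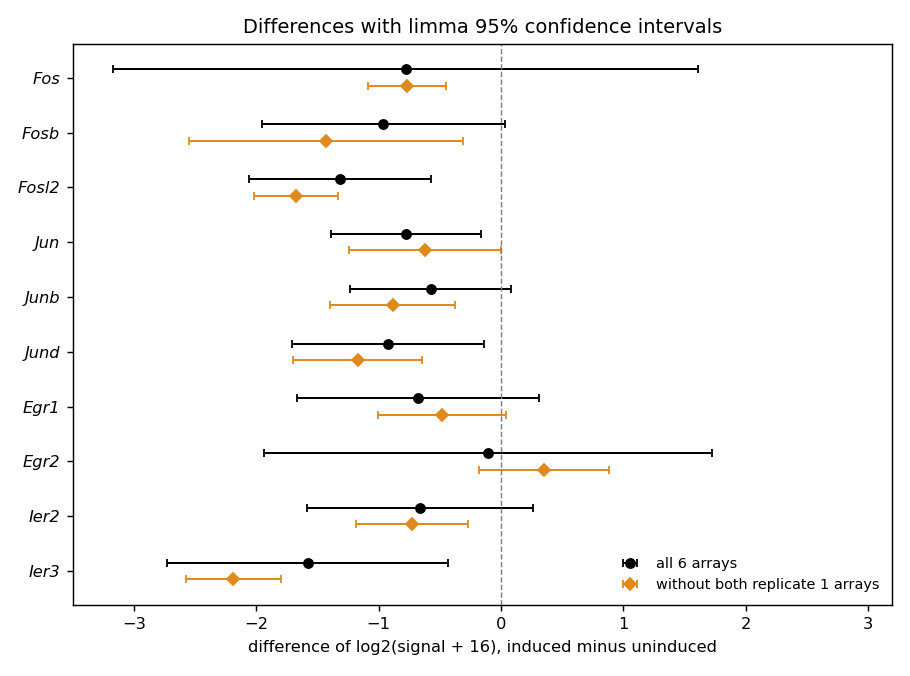
Differences of log2(signal + 16), induced minus uninduced, for the 10 genes, with 95% confidence intervals from limma, for all 6 arrays (black) and without both arrays numbered 1 (orange). All black points lie below 0, and the intervals of Fosl2, Jun, Jund and Ier3 do so entirely, while Egr2 lies above 0 without the arrays numbered 1.

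Across the 10 genes the arrays numbered 1 differed from the others in more than one way. For 4 genes, Fos, Egr1, Egr2 and Ier2, both arrays numbered 1 were above all arrays numbered 2 and 3, as for 13.8% of all genes. For Fosb, Junb and Ier3 induced array 1 stood above induced arrays 2 and 3, by 1.18, 0.83 and 1.72 on the log2 scale, while uninduced array 1 differed from uninduced arrays 2 and 3 by -0.22, -0.10 and -0.10. For Fosl2 and Jund uninduced array 1 stood below uninduced arrays 2 and 3, with differences of -1.04 and -1.02, and induced array 1 differed from induced arrays 2 and 3 by 0.04 and -0.28. This grouping was made after the values were seen and has no test. The number is the only label that these arrays share, and the labels do not say what it stands for. A limma fit with the number as a block kept each difference. The standard error fell most for Fos, from 0.99 to 0.15 (adjusted p of 0.202 in limma). It fell least for Junb, from 0.274 to 0.268 (adjusted p of 0.344 in limma). None of the 10 genes was called in that fit. Of all 18193 genes 0 were called there either, with a smallest adjusted p of 0.198 in limma. Why the arrays numbered 1 differ was not tested.

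Genes around these factors were taken from 4 lists. Over all genes tested, 0.0715% were called lower and 0.115% higher in limma. At an unadjusted p under 0.05 in limma, 10.3% were lower and 7.14% higher. Of the other AP-1 and ATF family genes 12 of 13 were measured, 7 of them with a negative difference and a median of -0.27, and 0 passed the threshold in limma in either direction (at an unadjusted p under 0.05, 3 lower and 1 higher). Jdp2, a repressor that pairs with Jun, stood at -1.17 ± 0.17 (adjusted p of 0.0799 in limma), Mafg at -0.72 ± 0.16 and Maff, a small Maf protein, at -1.61 ± 0.54. Batf2, an interferon-inducible family member, stood at 1.61 ± 0.48, with signals of 47.3, 4.85 and 33.2 in uninduced and 62.8, 154 and 122 in induced cells. Batf2 was the one of these 4 genes with all induced arrays above all uninduced ones. Its uninduced mean, 5.33 on the log2 scale, lay below background and its induced mean, 6.94, above it.

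Of the other immediate early genes 29 of 30 were measured, 19 with a negative difference and a median of -0.15, and 0 passed in limma (unadjusted, 8 lower and 2 higher). Ier5, an immediate early gene that also regulates the heat shock factor, stood at -1.33 ± 0.16 (adjusted p of 0.0563 in limma), the nearest to the threshold of all 4 lists. Its signals were 1350, 1543 and 1477 in uninduced and 642, 528 and 540 in induced cells, so that the arrays numbered 1 did not stand apart. Klf6, a Krüppel-like factor, stood at -2.01 ± 0.47, Btg1, an antiproliferative gene, at -1.66 ± 0.35, and Per1, a clock gene, at -1.02 ± 0.22. In this list all induced arrays lay below all uninduced ones for 8 genes and above them for 3, where 13.4% and 10.7% of all genes did so.

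Upstream of these genes, 17 of 27 listed kinases and factors were measured, and the others were not analysed here. None passed in limma (unadjusted, 2 lower and 0 higher, where 10.3% of all genes were lower and 7.14% higher), and the median was -0.11. Braf, a MEK-activating kinase, stood at -0.52 ± 0.15, Map2k1, which encodes MEK1, at -0.83 ± 0.34, Elk3, a ternary complex factor, at -0.76 ± 0.39, and Crem, a CREB relative, at 0.64 ± 0.30. Srf, which binds the CArG box, stood at -0.34 ± 0.21. Of the 6 measured partners and turnover factors 0 passed in limma (unadjusted, 1 lower and 0 higher), with a median of -0.20. Itch, a ubiquitin ligase that acts on Jun proteins, stood at -1.05 ± 0.21 (adjusted p of 0.111 in limma). Nab2, a corepressor of Egr factors, stood at -0.75 ± 0.54, Zfp36l2, which destabilises short-lived messages, at -0.24 ± 0.15, and Cops5, a Jun coactivator, at 0.34 ± 0.19. Without uninduced replicate 1, 12 genes of the 4 lists passed, all lower, with Ier5, Jdp2, Itch, Btg1, Klf6, Per1 and Mafg among them. In that setting 4.77% of all genes were called lower, against 0.0715% with all 6 arrays. Without both arrays numbered 1, 13 genes of the 4 lists passed, all lower, where 5.24% of all genes were called lower.

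**Figure D4:**
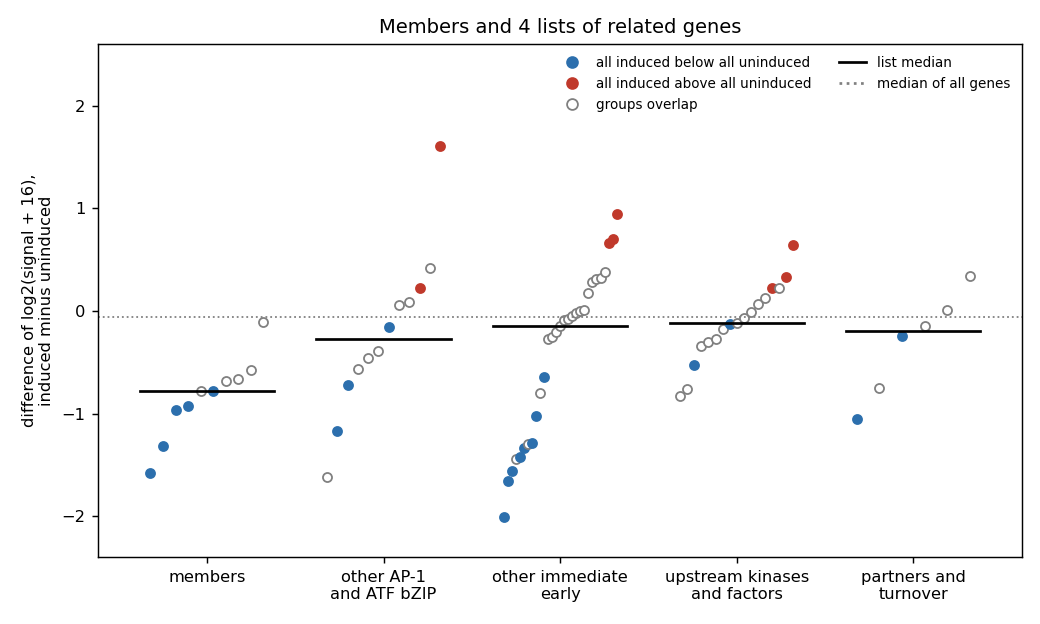
Differences of log2(signal + 16), induced minus uninduced, of the 10 genes and of each measured gene in 4 lists of related genes, with filled points where the groups did not overlap, black lines for list medians and a dotted line for the median of all genes. The medians are -0.78 for the 10 genes and -0.27, -0.15, -0.11 and -0.20 for the lists, against -0.06 for all genes.

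Most markers of myeloid cells also had a lower mean in induced cells. Of 12 measured markers 10 had a negative difference, and the median was -1.30. The other 2, Elane and Mpo, stood at 0.46 ± 0.56 and 0.05 ± 0.97. In limma 0 passed the threshold (unadjusted, 6 lower and 0 higher, where 10.3% of all genes were lower and 7.14% higher). By their mean over all 6 arrays 4 (S100a8, Ltf, Elane and Cd14) were below background. The uninduced means of S100a8 and Ltf, 7.06 and 6.88 on the log2 scale, lay above background and their induced means, 4.88 and 4.62, below it. The summed signal of all 12 myeloid markers was 668 to 1436 on induced and 1369 to 10171 on uninduced arrays. Most of the upper range came from Fcgr3, an immunoglobulin receptor singled out after its values were seen, with 7.90, 6588 and 6290 in uninduced and 4.12, 5.68 and 38.1 in induced cells, so uninduced array 1 sat with the induced arrays there. The part of these markers in the differences of the AP-1 and Ier genes was not tested. In bulk RNA fewer cells of a type and less RNA per cell cannot be told apart. Markers of T cells had a median difference of 0.29 over 5 genes, erythroid markers -0.08 over 4 and stromal markers -0.11 over 7, with 0 of them past the threshold in limma and, at an unadjusted p under 0.05, 2 higher and 0 lower.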

How the data were processed

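Expression was measured in 6 cultures on 6 arrays, 3 induced and 3 uninduced, grouped by the labels' titles. The deposited values are signal intensities on a linear scale, made with Affymetrix Expression Console 1.4.1 per the submitters' processing notes, and the summary algorithm and detection calls are not given in the sources used here. Nothing says that the cultures were separate experiments, so p-values measure the spread between these arrays, whose number limits the precision.

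Here log2(signal + 16) was taken without further normalization, leaving out 64 control probe sets. The platform table gave 1 symbol for 34945 probe sets, and the brightest stood for its gene. Genes (18193) and all probe sets (45037) were each fitted with limma 3.58.1 in R 4.3.3 (two-sided, Benjamini-Hochberg over all features, threshold 0.05). The code of the gene fit was also run on simulated arrays with independent noise. These lacked the spread shared by the arrays numbered 1, so they do not measure the power for the 10 genes. Values of a gene's dimmer probe set, and of Jak2 and Spag9, come from the probe set fit. An exact permutation test of 3 against 3 has 0.1 as its smallest p and was left out. The text names the 10 genes, and of each of 4 lists the up to 4 smallest p-values, with 3 genes most like Fosl2. Srf, Fcgr3 and the genes of the closing observations were chosen after their values were seen. Members and lists were chosen with earlier results of these data known. Figures used matplotlib 3.10.9.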

Additional observations from a re-analysis of the deposited data

How the results depend on the processing

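The median difference of the 10 genes stayed negative under all alternatives, from -0.996 to -0.54 when single arrays were left out. The alternatives were quantile normalization, median centring, a replicate block, pseudocounts of 1 and 64, a filter at the median level, the mean or the most variable probe set, trended and robust variance, a threshold of 0.01, and leaving out arrays. The filter removed Fosb and Egr1, so its count and median cover the 8 genes left. The count of the 10 genes called was 0 throughout except 1 (Fosl2) with trended and robust variance, where 3.02% of all genes were called (1.72% lower), 3 without both arrays numbered 1 and a range of 0 to 2 when each array was left out in turn. For the 14 probe sets the leave-one-out range was 0 to 2, both without uninduced replicate 1, and 0 were called otherwise. Of the 4 lists, 3 genes were called with a pseudocount of 64 (1.39% of all genes) and 3 with the filter (3.2% of all genes). Trended and robust variance gave 10 (3.02% of all genes), and leaving out both arrays numbered 1 gave 13 (8.12% of all genes). The range was 0 to 12 when each array was left out, with 12 without uninduced replicate 1 (7.99% of all genes). All these list genes were lower. Directions turned for Egr2, which was 0.031 with the most variable probe set, 0.35 without both arrays numbered 1 and from -0.62 to 0.74 when each array was left out, and for Fos, from -1.65 to 0.11. Of the 168 alternative values of single genes 156 kept both direction and side of the threshold. Part of them could not change, since the threshold of 0.01 repeats the main fit, in which no member passed 0.05. The replicate block, trended and robust variance and the filter keep each difference, as do the probe set rules for genes with 1 probe set. There only the side of the threshold could change. With the replicate block 0 of the 10 genes, 0 probe sets and 0 list genes were called (7 of the 10 genes had an unadjusted p under 0.05, as did 3269 of all 18193 genes, and the smallest adjusted p of all genes was 0.198). The deviations of same-numbered arrays correlated at 0.17, 0.08 and 0.08 over genes, and each array correlated best with its own number, a hint from the data and not from the design. For numbers 2 and 3 the hint is slight. Induced array 3 correlated at 0.06 with uninduced array 2, and induced array 2 at 0.05 with uninduced array 3. The number of arrays and the distance to background limit Fosb, Egr1 and the dimmer Jund probe set. Causes of these dependences were not tested.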

Other observations

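Some related genes repeated the array profiles of the 10 genes, chosen here after their values were seen. Dusp1, a phosphatase of ERK, JNK and p38 kinases, had signals of 2288, 487 and 615 on uninduced and 1043, 465 and 257 on induced arrays, with array 1 the highest of both groups as for Fos. Tnfaip3, the NF-kB inhibitor A20, had 97.6, 809 and 722 on uninduced and 107, 150 and 213 on induced arrays. Trib1, a pseudokinase, had 5.48, 88.8 and 77.9 on uninduced and 4.96, 6.39 and 6.59 on induced arrays, and Maff had 236, 651 and 600 against 281, 97.6 and 91.1. Both Trib1 means, 5.90 uninduced and 4.46 induced on the log2 scale, lay below background. For Tnfaip3 and Trib1 uninduced array 1 thus lay with the induced arrays. Their differences over all 6 arrays were -1.30 ± 0.77 and -1.44 ± 0.60, with adjusted p of 0.438 and 0.287 in limma.

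Rhob, a small GTPase of the immediate early list, went the other way at low signal, with 15.3, 8.93 and 4.71 on uninduced and 28.6, 47.5 and 24.5 on induced arrays. Gadd45b, a stress-inducible growth arrest gene, had 209, 350 and 255 on uninduced and 359, 474 and 502 on induced arrays. All induced arrays lay above all uninduced ones for both genes, and neither passed the threshold in limma (adjusted p of 0.158 and 0.227).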
